A study of Homo sapiens with 8 samples.

Results

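The genes described here are 10 members of the BCL2 family, taken by name wherever the tables of either cell line listed them: the survival genes MCL1, BCL2L1 and BCL2L2, the effectors BAX and BAK1, and the BH3-only genes BCL2L11, BID, BAD, BBC3 and PMAIP1. All 10 were listed in both lines, among 12715 genes listed in either, and all 10 passed the filter on low values in both lines. Poly(A)-selected RNA was sequenced from CAL-62 and BCPAP, a pair of established human cell lines of thyroid carcinoma, each given as anaplastic in the labels. The study compared THZ1, a covalent inhibitor of the transcription kinase CDK7, with its vehicle. The 4 groups were CAL-62 cells with 100 nM THZ1 for 6 h, CAL-62 cells with DMSO, BCPAP cells with 100 nM THZ1 for 6 h and BCPAP cells with DMSO, with 2 libraries in each. CAL-62 was grown in DMEM with 20% fetal bovine serum and BCPAP in RPMI 1640 with 10%, so effects of the line cannot be told apart from those of its medium. No label states that the 2 libraries of a group are separate cultures, so the p-values below reflect a spread between libraries that may be technical.

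BCL2 family proteins set whether the outer membrane of the mitochondrion stays closed. The survival proteins bind and hold back their death-promoting relatives. BAX and BAK, once active, form pores that release cytochrome c and start the caspases. The BH3-only proteins carry death signals to both sides, by occupying the survival proteins or by activating BAX and BAK directly. MCL-1, the product of MCL1, is a protein with a short life, which is why its gene is often followed when transcription is inhibited. The values below are transcript levels and do not give protein amounts, cleavage or phosphorylation.

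Levels are RPKM-type values, that is, reads per gene length and per library total, as deposited. Changes are THZ1 minus DMSO on the log2(value + 1) scale. Adding 1 makes the change of a low gene look smaller than it is. A gene was called when its limma p-value, adjusted over all genes tested in that comparison by Benjamini-Hochberg, was under 0.05. For a gene listed in both lines, 1 spread was estimated over all 4 groups. Its SE and interval in 1 line thus also carry the spread of the other line. Each library had between 16682509 and 19989730 reads in listed genes. The share of reads from mitochondrially encoded genes was 10.3% and 5.45% in CAL-62 with THZ1, against 6.26% and 3.74% with DMSO, and 5.07% and 3.38% in BCPAP with THZ1, against 4.74% and 2.69% with DMSO. Of the thyroid follicular markers, CAL-62 listed PAX8 and HHEX and BCPAP listed these with NKX2-1 and FOXE1, whereas TG, TSHR and SLC5A5 were outside both tables. In CAL-62 PAX8 was called lower with THZ1 (change -2.92, SE 0.64, limma adjusted p = 0.0469), while HHEX had a change of 0.84 and was not called (limma adjusted p = 0.217). In BCPAP the change was -0.90 for PAX8, -1.01 for FOXE1, 0.99 for HHEX and 0.15 for NKX2-1, and none of these was called. FOXE1 and HHEX had an unadjusted limma p under 0.05 there. The 5 epithelial markers listed in CAL-62 all had a positive change (median 0.64, 3 with an unadjusted limma p under 0.05), as did the 3 listed in BCPAP (median 0.33), and none was called. Over all genes tested in CAL-62, 3418 of 11362 had an unadjusted limma p under 0.05. Neither line listed any of 5 blood or 4 endothelial markers, and each listed 1 of 7 fibroblast markers, COL1A1.

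In CAL-62, 1 of the 10 members passed the test: BAK1 was lower with THZ1. Over all 11362 genes tested in that line, 4.62% were called in either direction and 4.04% were called lower, so a single call among 10 genes is not read as a property of the family. Without CAL-62 DMSO replicate 1 no member and 9 of all genes were called, and without CAL-62 DMSO replicate 2 no member and 0 of all genes. Both THZ1 libraries lay below both DMSO libraries for MCL1, BCL2L2 and BAK1, which is 3 of 10 members beside 27.4% of all genes. Both lay above for BCL2L11, BID and BAD, again 3 of 10, beside 30.1% of all genes. The median change of the members was -0.07, beside 0.03 over all genes. An unadjusted limma p under 0.05 was found for 3 of 10 members (MCL1, BCL2L2 and BAK1), beside 3418 of the 11362 genes. All 3 survival genes had a negative change, as did BAK1 and BBC3, and the other 5 members had a positive one. Over all genes tested in CAL-62, 48.2% had a negative change. In RNA from whole cultures, loss of some cells and less RNA per cell cannot be told apart.

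In BCPAP none of the members was called by limma, and 1 of 10, BCL2L11, had an unadjusted p under 0.05. The background was the same: 0% of 11743 genes were called, 471 had an unadjusted p under 0.05, the smallest adjusted p was 0.932, and limma-voom on reads recovered from the values called 0 genes. BCL2L2 was lower without overlap, which is 1 of 10 members beside 16.4% of all genes. BCL2L11 and PMAIP1 were higher without overlap, which is 2 of 10 beside 21.9% of all genes. The median change of the members was 0.08, beside 0.07 over all genes.

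**Figure D1:**
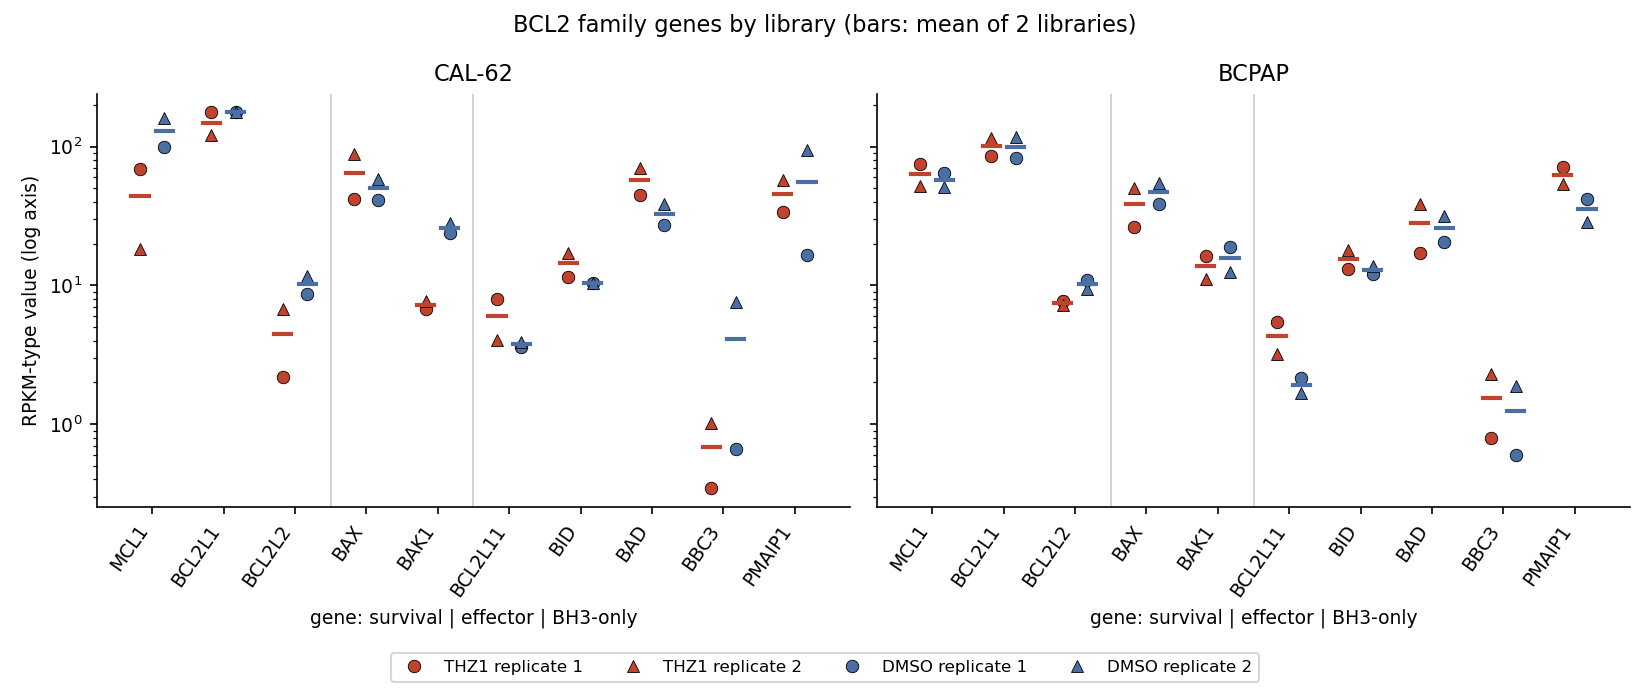
Level of each member in the 8 libraries, as RPKM-type value on a log axis, with THZ1 in red and DMSO in blue, replicate 1 as circles, replicate 2 as triangles and bars at the mean of 2 libraries. BAK1 in CAL-62 shows the clearest gap, 6.80 and 7.71 with THZ1 against 23.8 and 28.0 with DMSO, while most members overlap in BCPAP.

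Among the survival genes, MCL1 encodes the guardian that holds BAK and BIM in check. In CAL-62 it had 69.4 and 18.3 with THZ1, against 99.2 and 161 with DMSO. Both THZ1 libraries were below both DMSO libraries, but the 2 THZ1 libraries were themselves far apart, 43.8 ± 36.1 with THZ1 and 130 ± 43.4 with DMSO (SD, n = 2 each). The change was -1.79 (SE 0.55, 95% interval -3.07 to -0.51) and did not pass (limma unadjusted p = 0.0125, adjusted p = 0.0855). Without THZ1 replicate 1 it was -2.72 and passed (limma adjusted p = 0.0321), and without THZ1 replicate 2 it was -0.85 and did not (limma adjusted p = 0.179). In BCPAP MCL1 had 75.5 and 52.5 with THZ1, against 64.2 and 50.9 with DMSO. The groups overlapped there, and the change was 0.14 (95% interval -1.15 to 1.42, limma adjusted p = 0.978). Its SE of 0.55 also carries the spread in CAL-62, and was 0.26 with the 4 BCPAP libraries alone. MCL1 shares its position with the gene model ADAMTSL4-AS1, which is on the same strand and was not listed, so its reads are uncertain to that extent.

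BCL2L1 encodes BCL-XL and, by another splice site, the short form BCL-XS, which gene-level values cannot tell apart. Its level in CAL-62 was 177 and 121 with THZ1, against 177 and 177 with DMSO. One THZ1 library was thus level with the DMSO libraries and the other was lower, and the change was -0.27 (95% interval -0.91 to 0.37, limma adjusted p = 0.537). It was -0.54 without THZ1 replicate 1. Its level in BCPAP was 86.2 and 115 with THZ1, against 82.6 and 117 with DMSO, with a change of 0.02 (95% interval -0.62 to 0.65, limma adjusted p = 0.995). These intervals hold changes in either direction, so equal levels are not shown.

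BCL2L2, which encodes BCL-w, was the survival gene with the lowest level in every group. CAL-62 had 2.20 and 6.73 with THZ1, against 8.69 and 11.7 with DMSO. BCPAP had 7.77 and 7.24 with THZ1, against 10.9 and 9.47 with DMSO. It was the only member whose THZ1 libraries were both below both DMSO libraries in each line, and neither change passed. Lower without overlap held for 27.4% of all genes in CAL-62 and 16.4% in BCPAP, and the share in both lines was not counted. The change was -1.16 in CAL-62 (SE 0.40, limma unadjusted p = 0.0196, adjusted p = 0.105) and -0.39 in BCPAP (SE 0.40, limma adjusted p = 0.932). Leaving out 1 library cannot turn the sign of groups without overlap, and several other alternatives repeat the same change. The change was negative under all 19 alternatives tried in each line, which is thus no independent support. In CAL-62 it was -1.79 without THZ1 replicate 2 (limma adjusted p = 0.0301) and -0.52 without THZ1 replicate 1 (limma adjusted p = 0.264). Its gene model overlaps the read-through model BCL2L2-PABPN1 on the same strand, which was not listed, so its reads are uncertain in the same way.

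BAK1, the member that passed, encodes BAK, the effector that sits in the mitochondrial membrane from the start. In CAL-62 it had 6.80 and 7.71 with THZ1, against 23.8 and 28.0 with DMSO, from 206 and 316 reads and from 1126 and 1447 reads. The replicates lay close together and the groups were far apart: the mean was 72.0% lower with THZ1, at 7.26 ± 0.638 against 25.9 ± 2.98 with DMSO (SD, n = 2 each). The change was -1.70 (SE 0.28, 95% interval -2.34 to -1.06, limma adjusted p = 0.0232). limma-voom on the recovered reads gave -1.81 (adjusted p = 0.0252). BAK1 was called in 15 of 19 alternatives, with a change of -2.66 to -1.59 and an adjusted p of 0.00512 to 0.180. It was not called without DMSO replicate 1 (limma adjusted p = 0.10), DMSO replicate 2 (0.180) or THZ1 replicate 1 (0.0622), nor with the 4 CAL-62 libraries alone (0.0842). Several of these alternatives repeat the same change, so the calls are not independent of each other. The limma adjusted p of 0.00512 came with the replicate number as a block, where 40.2% of all genes were called. With ribosomal protein genes as the reference 26.6% of all genes were called, and with the sum of reads 13.2%. In BCPAP BAK1 had 16.3 and 11.2 with THZ1, against 19.0 and 12.6 with DMSO. The groups overlapped there and the change was -0.18 (95% interval -0.82 to 0.46, limma adjusted p = 0.944).

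The stretch of 250 bases before the annotated start of BAK1 is shown because BAK1 is the member that was called. It lies at chr6:33580277-33580526 on the minus strand (RefSeq, GRCh38.p14), and capitals mark the GC box (GGGCGG or CCGCCC) and the CCAAT box (CCAAT or ATTGG).
BAK1: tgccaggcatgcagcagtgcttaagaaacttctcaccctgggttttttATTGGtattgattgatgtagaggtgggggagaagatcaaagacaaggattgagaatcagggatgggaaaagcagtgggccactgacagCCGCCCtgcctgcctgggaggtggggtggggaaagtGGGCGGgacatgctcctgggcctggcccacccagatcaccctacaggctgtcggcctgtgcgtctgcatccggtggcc
A search found 2 GC boxes, 1 CCAAT box and no TATA box (TATAAA or TTTATA). Of 35116 RefSeq windows of the same length, 42.6% held a GC box, 32.0% a CCAAT box and 10.7% a TATA box. The match is a description of the letters and says nothing of the factors bound there. A window was found for 8 of the 10 members.

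BAX encodes the second effector, which is mostly in the cytosol until it is activated. Its CAL-62 values were 42.0 and 88.3 with THZ1, against 41.6 and 58.4 with DMSO. The groups overlapped, and the change was 0.30 (95% interval -0.70 to 1.30, limma adjusted p = 0.666). Its BCPAP values were 26.2 and 50.4 with THZ1, against 38.7 and 54.9 with DMSO, with a change of -0.33 (95% interval -1.33 to 0.66, limma adjusted p = 0.938). In CAL-62 its sign turned under 3 scalings and without THZ1 replicate 2 (-0.23), and in BCPAP without THZ1 replicate 1 (0.13).

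Of the BH3-only genes, BCL2L11 encodes BIM, which binds all survival proteins and can activate BAX and BAK. In CAL-62 it had 7.95 and 4.06 with THZ1, against 3.63 and 3.89 with DMSO. In BCPAP it had 5.46 and 3.22 with THZ1, against 2.16 and 1.68 with DMSO. Both THZ1 libraries were thus above both DMSO libraries in each line, although in CAL-62 the lower THZ1 library exceeded the higher DMSO library by little. Higher without overlap held for 30.1% of all genes in CAL-62 and 21.9% in BCPAP, and the share in both lines was not counted. The change was 0.50 in CAL-62 (SE 0.34, limma adjusted p = 0.346), where it was negative with ribosomal protein genes (-0.27) or mitochondrial genes (-0.40) as the reference. In BCPAP it was 0.84 (SE 0.34, 95% interval 0.06 to 1.62), with an unadjusted limma p of 0.0378 and an adjusted p of 0.932. It was positive there under all 18 alternatives that could be fitted, from 0.53 to 1.15. Leaving out 1 library could not turn this sign, since the groups did not overlap.

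PMAIP1 encodes NOXA, the BH3-only protein that binds MCL-1 by preference. In BCPAP it had 71.2 and 54.2 with THZ1, against 42.0 and 28.8 with DMSO. Both THZ1 libraries were higher, with a change of 0.82 (SE 0.68, 95% interval -0.77 to 2.40, limma adjusted p = 0.932). That SE also carries the spread in CAL-62, and with the 4 BCPAP libraries alone it was 0.27 (limma adjusted p = 0.806). Leaving out 1 library could not turn the sign of PMAIP1 there, which was positive under all 19 alternatives, from 0.48 to 1.08. In CAL-62 it had 33.6 and 57.1 with THZ1, against 16.7 and 94.0 with DMSO. The DMSO libraries bracketed the THZ1 libraries, and the change was 0.13 (95% interval -1.46 to 1.71, limma adjusted p = 0.917). It was 1.34 without DMSO replicate 2 and -1.09 without DMSO replicate 1, so the sign rests on which DMSO library is kept, and it was negative under all 4 other scalings.

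The windows before the starts of BCL2L11, at chr2:111120664-111120913 on the plus strand, and PMAIP1, at chr18:59899746-59899995 on the plus strand (RefSeq, GRCh38.p14), are shown because both genes lay higher with THZ1 in BCPAP without overlap. Capitals mark the same boxes as for BAK1.
BCL2L11: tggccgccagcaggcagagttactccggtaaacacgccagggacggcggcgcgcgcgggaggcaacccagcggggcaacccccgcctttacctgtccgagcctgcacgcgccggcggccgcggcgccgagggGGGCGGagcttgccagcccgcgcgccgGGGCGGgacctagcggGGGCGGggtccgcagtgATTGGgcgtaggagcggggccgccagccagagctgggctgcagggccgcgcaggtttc
PMAIP1: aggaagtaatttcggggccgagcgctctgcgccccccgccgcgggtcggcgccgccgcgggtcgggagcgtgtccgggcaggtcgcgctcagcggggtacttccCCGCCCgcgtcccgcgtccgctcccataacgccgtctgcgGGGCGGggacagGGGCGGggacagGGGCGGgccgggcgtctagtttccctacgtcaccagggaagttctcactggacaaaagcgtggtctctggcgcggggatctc
BCL2L11 held 3 GC boxes and 1 CCAAT box, and PMAIP1 held 4 GC boxes. Neither window held a TATA box, and GC boxes alone are common, at the 42.6% of windows given above.

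BBC3 encodes PUMA, a target of p53, and was the member with the fewest reads. CAL-62 had 0.346 and 1.02 with THZ1, against 0.664 and 7.56 with DMSO, from 10 and 40 reads and from 30 and 373 reads. One DMSO library held nearly all of the difference. The change was -1.19 (SE 0.72, 95% interval -2.85 to 0.46, limma adjusted p = 0.297) and it was -0.01 without DMSO replicate 2. BCPAP had 0.792 and 2.32 with THZ1, against 0.603 and 1.90 with DMSO, with a change of 0.18 (limma adjusted p = 0.978). CAL-62 DMSO replicate 2 was also the highest CAL-62 library for PMAIP1 at 94.0, DDIT3 at 47.3 and TRIB3 at 67.7. The part of that library in the changes of DDIT3 and TRIB3 was not tested.

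BID links death receptors to mitochondria once caspase-8 cuts it, and BAD, held inactive by phosphorylation, binds BCL-XL, BCL-2 and BCL-w. In CAL-62 BID had 11.6 and 17.2 with THZ1, against 10.5 and 10.5 with DMSO. BAD had 44.5 and 70.7 with THZ1 there, against 27.3 and 38.7 with DMSO. Both genes lay higher with THZ1 without overlap and neither passed: the change was 0.40 for BID (SE 0.26, limma adjusted p = 0.332) and 0.77 for BAD (SE 0.42, limma adjusted p = 0.254). Both changes were negative with ribosomal protein or mitochondrial genes as the reference, at -0.48 and -0.57 for BID and -0.16 and -0.27 for BAD. In BCPAP BID had 13.1 and 18.1 with THZ1, against 12.1 and 13.8 with DMSO, with a change of 0.23 (limma adjusted p = 0.938). BAD had 17.3 and 38.7 with THZ1 in BCPAP, against 20.5 and 31.6 with DMSO, with a change of 0.02 (limma adjusted p = 0.995). Both genes overlapped between the groups in BCPAP. BAD shares part of its position with GPR137, which is listed and lies on the other strand, and whether the counting used strand is not given. The same holds for BAK1 with GGNBP1, BCL2L1 with ABALON and BCL2L11 with MIR4435-2HG, none of which were listed.

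**Figure D2:**
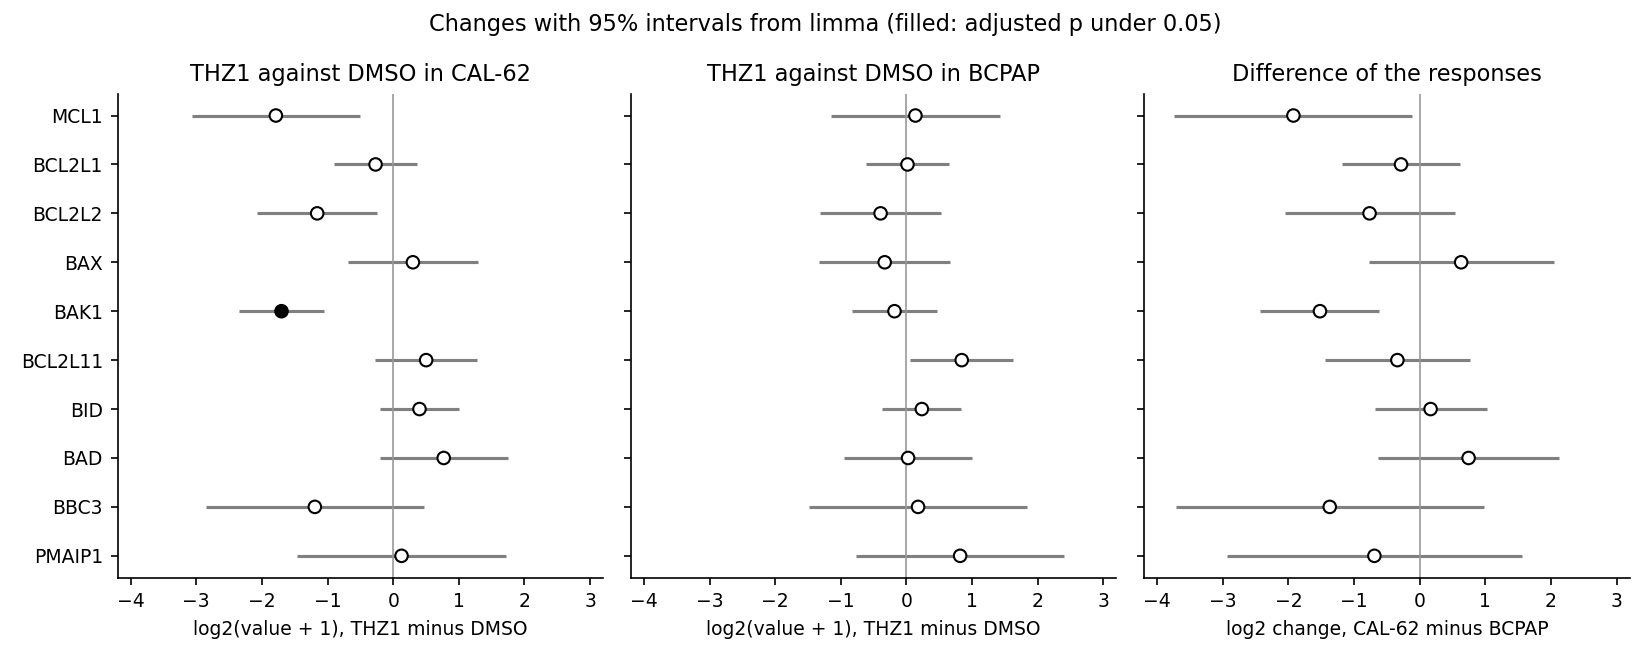
Change of each member on the log2(value + 1) scale with its 95% interval from limma, as THZ1 minus DMSO in CAL-62 and in BCPAP, and as the difference of the 2 responses, CAL-62 minus BCPAP. The filled point is BAK1 in CAL-62, at -1.70, the 1 change with an adjusted p under 0.05, and its difference of -1.52 lies clear of 0 before adjustment only.

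A call in CAL-62 and none in BCPAP does not show that the lines responded differently, so the difference of the responses was tested over the 10653 genes tested in both. No member was called, and 0% of all genes were called. limma gave 562 genes an unadjusted p under 0.05 with a smallest adjusted p of 0.834, and limma-voom called 0 genes. The largest differences among the members, CAL-62 minus BCPAP, were in MCL1 and BAK1, the 2 members with an unadjusted p under 0.05. MCL1 differed by -1.92 (95% interval -3.74 to -0.11, limma unadjusted p = 0.0401, adjusted p = 0.843). BAK1 differed by -1.52 (95% interval -2.43 to -0.61, limma unadjusted p = 0.0049, adjusted p = 0.834), and stayed between -2.16 and -1.24 under 18 alternatives without being called in any. Of the members, 7 had a negative difference and the other 3 (BAX, BID and BAD) a positive one, each with an interval that held 0. Over all genes tested, 50.8% had a negative difference.

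By level, BCL2L1 was the highest member in each of the 4 groups, at 149 ± 39.4 with THZ1 and 177 ± 0.166 with DMSO in CAL-62, and at 100.4 ± 20.2 with THZ1 and 99.8 ± 24.3 with DMSO in BCPAP (SD, n = 2 each). In CAL-62 with DMSO that put it at percentile 97.9 of the listed genes, and MCL1 at 96.8. MCL1 came next after BCL2L1 in BCPAP with THZ1 and in both DMSO groups, but was number 5 in CAL-62 with THZ1, where its range overlapped that of PMAIP1 just above it. In CAL-62 with THZ1 the order was BCL2L1, BAX, BAD, PMAIP1, MCL1, BID, BAK1, BCL2L11, BCL2L2 and BBC3. There BAX overlapped BAD, BAD overlapped PMAIP1 and PMAIP1 overlapped MCL1, and further down BAK1 overlapped BCL2L11 and BCL2L11 overlapped BCL2L2. In CAL-62 with DMSO it was BCL2L1, MCL1, PMAIP1, BAX, BAD, BAK1, BID, BCL2L2, BBC3 and BCL2L11. There PMAIP1 overlapped BAX, BAD overlapped BAK1, BID overlapped BCL2L2 and BBC3 overlapped BCL2L11. BBC3 or BCL2L11 was last in every group. The tables of the lines were normalized separately, so levels are set side by side across lines and were not tested.

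Ratios within a library do not depend on how the library was scaled. MCL1 made up 27.9% and 12.5% of the summed level of the 3 survival genes in CAL-62 with THZ1, against 34.8% and 46.0% with DMSO. The groups did not overlap. BCL2L1 made up 71.2% and 82.9% with THZ1, against 62.1% and 50.6% with DMSO. These are shares of 1 sum, so a lower share of MCL1 leaves a higher one for the rest. The level of BCL2L1 itself did not rise, at 177 and 121 with THZ1 against 177 and 177 with DMSO. In BCPAP MCL1 made up 44.5% and 30.1% with THZ1, against 40.7% and 28.7% with DMSO, which overlapped. The summed level of the 7 death-promoting members over that of the survival genes was 0.590 and 1.68 in CAL-62 with THZ1, against 0.436 and 0.691 with DMSO. It was 0.888 and 1.02 in BCPAP with THZ1, against 0.856 and 0.819 with DMSO. The CAL-62 groups overlapped and the BCPAP groups did not, although the BCPAP values lay close together. These shares and ratios were not tested.

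A pair of further ratios was chosen after the values were seen. BAX over BAK1 was 6.17 and 11.5 in CAL-62 with THZ1, against 1.75 and 2.09 with DMSO. In BCPAP it was 1.61 and 4.51 with THZ1, against 2.03 and 4.37 with DMSO. The CAL-62 groups were far apart and the BCPAP groups overlapped. PMAIP1 over MCL1, the BH3-only gene and its partner, was 0.484 and 3.12 in CAL-62 with THZ1, against 0.168 and 0.586 with DMSO. In BCPAP it was 0.943 and 1.03 with THZ1, against 0.654 and 0.566 with DMSO, so that the groups did not overlap in BCPAP and did in CAL-62.

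**Figure D3:**
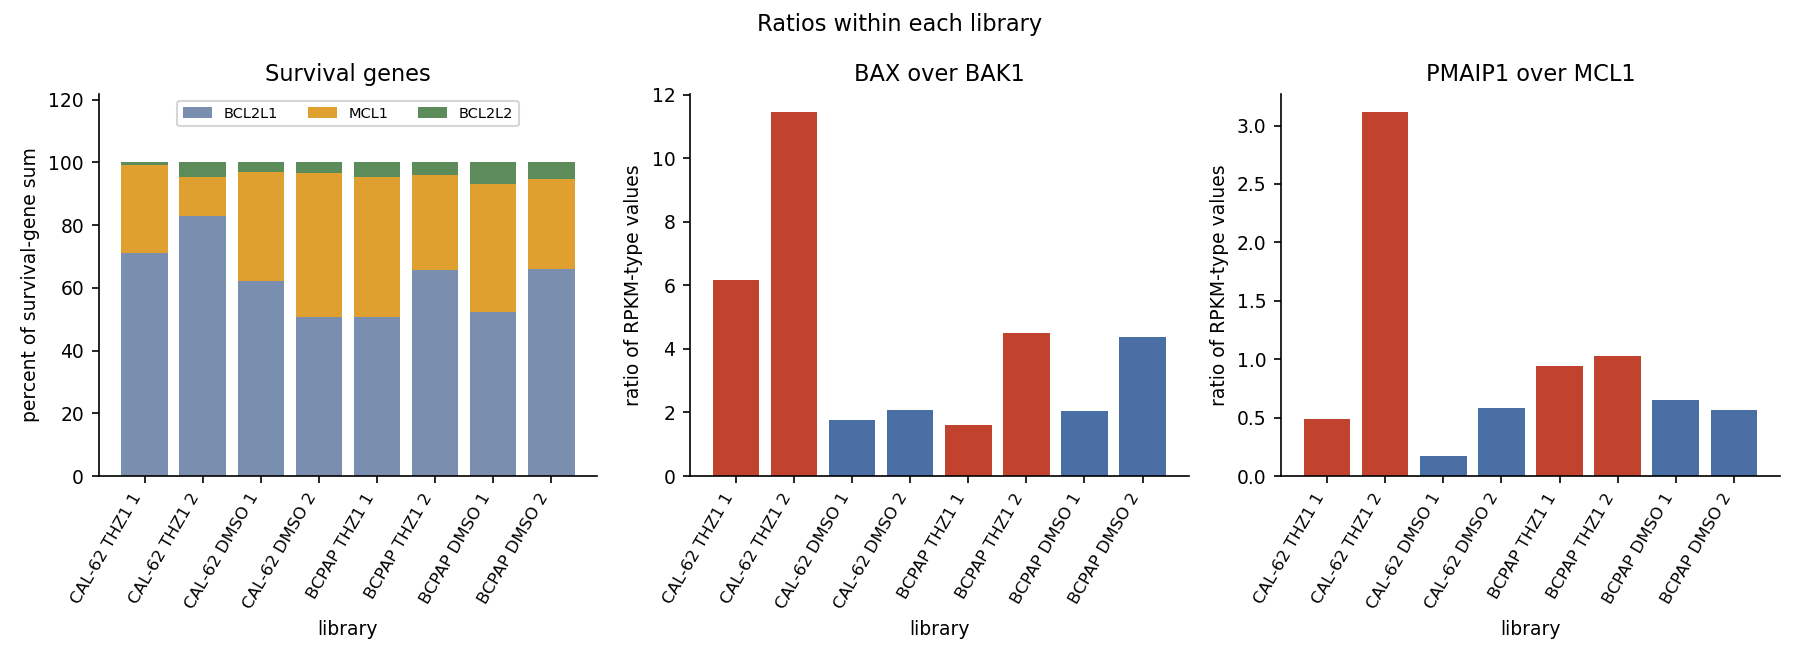
Ratios within each of the 8 libraries: the share of each survival gene in their summed RPKM-type value (left), and the ratio of BAX to BAK1 and of PMAIP1 to MCL1 (bars from 0, THZ1 in red and DMSO in blue). BAX over BAK1 is 6.17 and 11.5 in CAL-62 with THZ1, above all 6 other libraries.

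The scaling of the libraries moves every member together. The library totals behind the deposited values followed median-of-ratios size factors within 2.22%, so a typical gene is level in the deposited values and a fall in total mRNA per cell would not show. Scaling to the upper quartile shifted log2 values in CAL-62 by -0.17, scaling to the sum of reads by -0.43, to 76 ribosomal protein genes by -0.95 and to 13 mitochondrially encoded genes by -1.07. In BCPAP the shifts were -0.10, -0.18, -0.30 and -0.34 in that order. Net of the shift, BAK1 in CAL-62 stood between -1.69 and -1.59 and MCL1 between -1.78 and -1.76 under these scalings. Their changes on the deposited scale were -1.70 and -1.79. Taking off the shift returns the deposited change by arithmetic, apart from the effect of adding 1, so this closeness is no test of the scaling. MCL1 was called under 3 of them, at -2.21 with the sum of reads (limma adjusted p = 0.0329), -2.72 with ribosomal protein genes (0.0165) and -2.84 with mitochondrial genes (0.0153). BCL2L1, at -1.22 (limma adjusted p = 0.0214), and BCL2L2, at -1.96 (0.0156), were called with ribosomal protein genes. That reference called 26.6% of all genes in CAL-62, the sum of reads 13.2% and the mitochondrial genes 6.91%. With ribosomal protein or mitochondrial genes as the reference all 10 members had a negative change in CAL-62. In BCPAP BCL2L11 and PMAIP1 were the members still positive with those references.

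**Figure D4:**
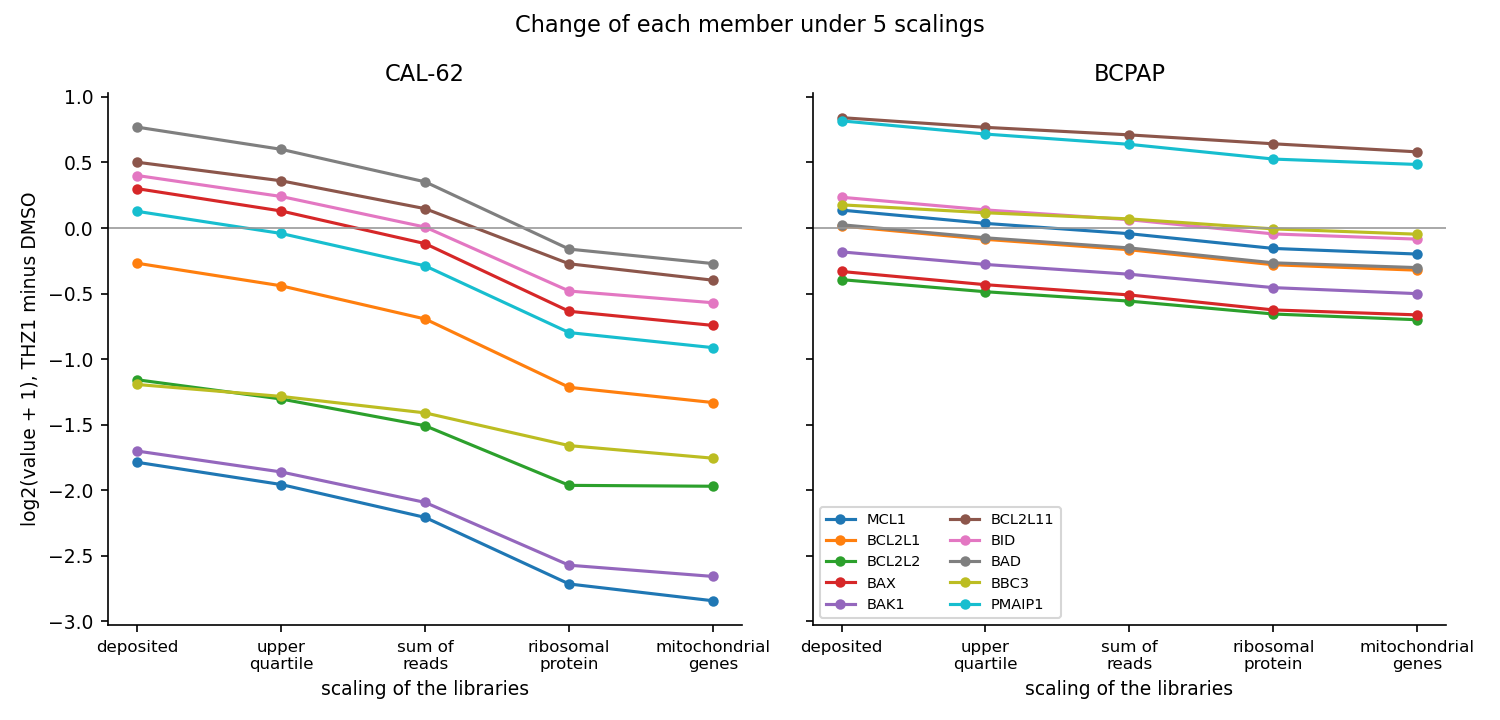
Change of each member, THZ1 minus DMSO on the log2(value + 1) scale, under the deposited scaling and 4 others, in CAL-62 and in BCPAP (1 line per gene). In CAL-62 all members move down together, to -2.84 for MCL1 and -0.27 for BAD with mitochondrial genes as the reference. Each scaling gives every gene the same shift before 1 is added, so the spacing between the higher members is nearly kept by construction. Low members move less: BBC3 in CAL-62 went from -1.19 to -1.76 with mitochondrial genes as the reference.

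The genes whose pattern over the 8 libraries was most like that of MCL1 were RNF19A, PPP1R3B and PLK2, with root mean square differences of 0.18, 0.22 and 0.26 on the log2(value + 1) scale after each line's mean was taken off. For BAK1 they were ITPRIPL2, TIMM9 and POGK, at 0.10, 0.12 and 0.15. The search covered 7921 genes. These genes were picked for likeness over the same 8 libraries, so the features they share with MCL1 or BAK1 follow from the choice. RNF19A had 5.41 and 1.56 in CAL-62 with THZ1, against 11.5 and 14.5 with DMSO, and so shares with MCL1 a lower value in THZ1 replicate 2. ITPRIPL2 had 2.55 and 2.97 in CAL-62 with THZ1, against 10.1 and 11.7 with DMSO, which is as tight a separation as in BAK1.

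Wider death-pathway genes were read from 5 lists, and none of their genes was called in either line or in the difference. The positive changes of these genes in CAL-62, up to 0.87, are all smaller in size than the shift of -0.95 that the ribosomal protein reference gives. Their signs under that reference were not examined, and a low gene takes less than the full shift because 1 is added. As a baseline for the counts of signs below, 48.2% of all genes tested had a negative change in CAL-62 and 41.4% in BCPAP. Of 8 other BCL2 family genes tested in CAL-62, 4 had a positive change and 4 a negative one, with a median of 0.13. Of 7 in BCPAP, 3 were positive and 4 negative, with a median of -0.02. BCL2 itself was listed in CAL-62 alone, at 1.32 and 1.19 with THZ1, against 2.30 and 2.57 with DMSO (change -0.61, limma adjusted p = 0.148). Among genes of this list with a mean value of at least 5, the mitophagy receptors BNIP3 and BNIP3L had the largest changes without overlap in CAL-62. BNIP3 had 54.4 and 43.0 with THZ1, against 30.8 and 24.3 with DMSO (change 0.80, limma adjusted p = 0.0762). BNIP3L had 22.7 and 21.1 with THZ1, against 13.9 and 14.4 with DMSO (change 0.59, limma adjusted p = 0.128). In BCPAP, at the same minimum level, the corresponding genes were BNIP3L at 0.45 and BCL2L13 at -0.53 (limma adjusted p = 0.932 for each). BMF, a BH3-only gene below that level, had a larger change without overlap there, -0.81 (limma adjusted p = 0.932).

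Among 16 genes of the apoptosome, the caspases and mitochondrial release tested in CAL-62, 9 were positive and 7 negative, with a median of 0.07. Of 17 in BCPAP, 7 were positive and 10 negative, with a median of -0.12. VDAC2, the outer membrane channel known to hold BAK at mitochondria, had 133 and 109.7 in CAL-62 with THZ1, against 65.1 and 65.9 with DMSO. Its groups were well apart, with a change of 0.87 (SE 0.21, limma adjusted p = 0.0585). In BCPAP it had 94.7 and 126 with THZ1, against 75.9 and 82.4 with DMSO (change 0.46, limma adjusted p = 0.932). The related channel VDAC1 had 168 and 149 in CAL-62 with THZ1, against 94.2 and 88.9 with DMSO (change 0.78, limma adjusted p = 0.0835). HTRA2, a protease released from mitochondria, changed by -0.66 in BCPAP without passing (limma adjusted p = 0.932).

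The caspase inhibitors had 2 positive and 4 negative changes in CAL-62, with a median of -0.40, and 3 and 3 in BCPAP, with a median of -0.05. BIRC3, which encodes cIAP2, had 6.05 and 1.28 in CAL-62 with THZ1, against 9.31 and 8.86 with DMSO (change -1.33, limma adjusted p = 0.113). BIRC5, which encodes survivin, had 63.3 and 69.4 with THZ1 there, against 41.1 and 44.1 with DMSO (change 0.63, limma adjusted p = 0.158). Of the genes that act on the turnover of BCL2 family proteins, 6 of 8 were positive in CAL-62 and 8 of 9 in BCPAP, with medians of 0.29 and 0.19. Over all genes the medians were 0.03 and 0.07, with 48.2% and 41.4% negative. MAPK8, which encodes the kinase JNK1, was higher without overlap in both lines, by 0.80 in CAL-62 (limma adjusted p = 0.126) and 0.68 in BCPAP (limma adjusted p = 0.932). Of all genes, 30.1% in CAL-62 and 21.9% in BCPAP were higher without overlap, and the share in both lines was not counted. BAG3, an HSP70 partner, had a change of 0.36 in BCPAP (limma adjusted p = 0.938).

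The list of transcriptional inducers of the BH3-only genes, which also holds the pseudokinase TRIB3, had 1 positive and 8 negative changes in CAL-62, with a median of -0.49, and 3 positive and 5 negative in BCPAP, with a median of -0.13. DDIT3, which encodes the stress factor CHOP, had 2.15 and 2.27 in CAL-62 with THZ1, against 8.89 and 47.3 with DMSO. The groups did not overlap, and the change of -2.77 (SE 0.64) had a limma adjusted p of 0.0522. TRIB3, a target of CHOP and no transcription factor itself, had 5.41 and 10.2 with THZ1, against 11.8 and 67.7 with DMSO (change -1.81, limma adjusted p = 0.126). In BCPAP both were also lower without overlap, by changes of -0.75 for DDIT3 and -0.33 for TRIB3, neither of which passed. Of all genes, 27.4% in CAL-62 and 16.4% in BCPAP were lower without overlap, and the share in both lines was not counted.

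**Figure D5:**
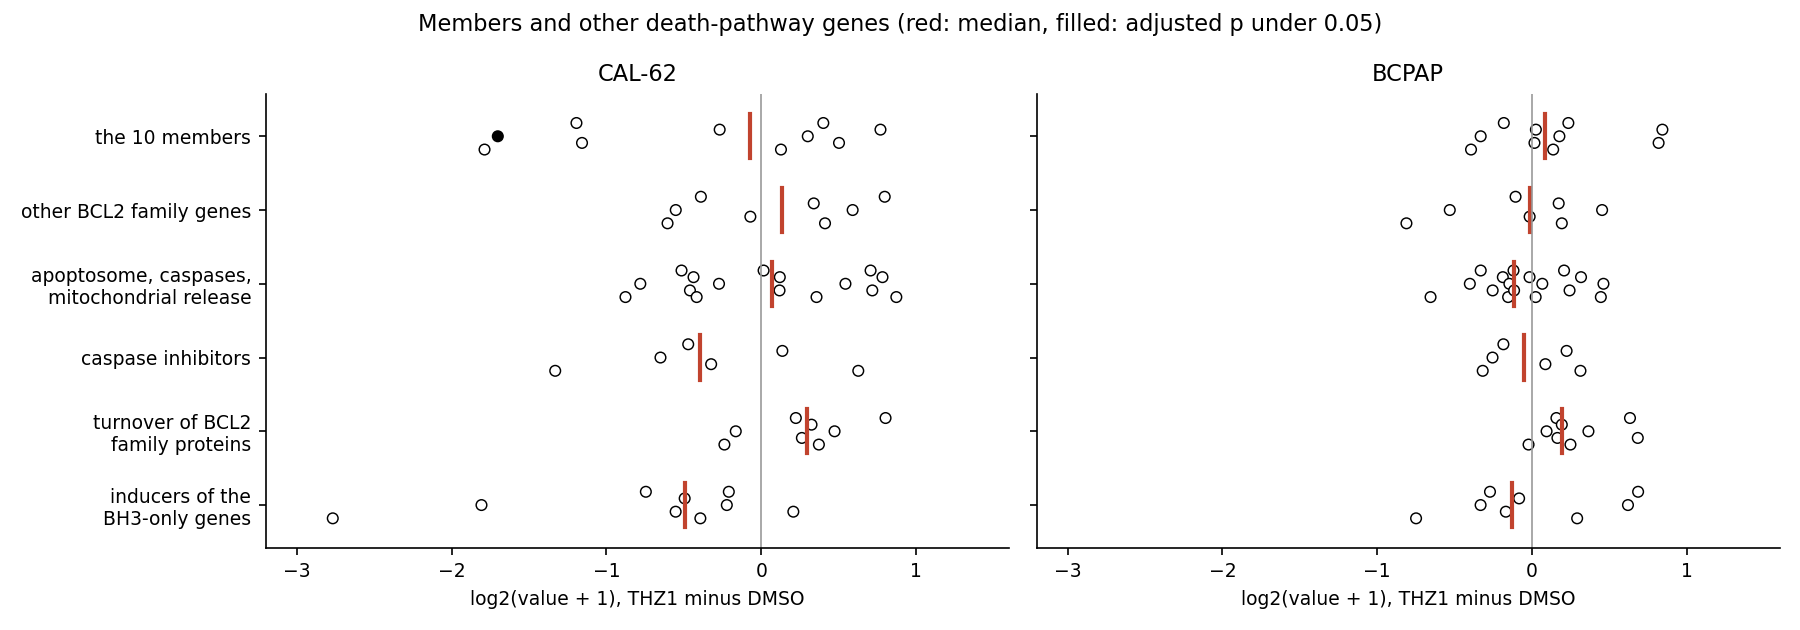
Changes of the members and of 5 lists of death-pathway genes, as THZ1 minus DMSO on the log2(value + 1) scale, with 1 point per gene, the median of each list as a red bar and points with an adjusted p under 0.05 filled. The filled point is BAK1 in CAL-62, and the point furthest left is DDIT3 in CAL-62, at -2.77.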

How the data were processed

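RNA-seq values of 8 libraries, 2 for each line and treatment, were used as the authors deposited them, in an RPKM-type unit inferred from the values. Bowtie2, DESeq2 and hg19 appear in the submitters' processing notes, without roles. Neither annotation nor strand setting is given in the sources used here. Genes with a DMSO mean under 1 lie outside the deposited tables, so genes that THZ1 turned on from below it are not seen. For all 12715 genes the values equalled whole reads over a whole gene length within 0.02 reads, so reads were recovered and used in limma-voom as an alternative.

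limma 3.58.1 in R 4.3.3 was fitted with a mean-variance trend to log2(value + 1), keeping genes whose mean was 1 or more, with a coefficient for each of 4 groups and 1 shared spread. P-values are two-sided and adjusted by Benjamini-Hochberg over all genes tested. The code was tested on simulated data. The members and lists were chosen with earlier results of these data known. Genes of the 5 lists were named if called, or else as the 2 with the largest change without overlap per line and a mean of at least 5. Replicates differed far beyond counting noise, so each counted as 1 library. Alternatives varied the pseudocount, filter, scaling, test, replicate number and libraries kept. Promoter windows come from RefSeq on GRCh38.p14 and were matched by symbol.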

Additional observations from a re-analysis of the deposited data

How the results depend on the processing

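Of the members' changes, 157 of 188 values under alternatives kept both their sign and their side of the threshold in CAL-62, as did 160 of 188 in BCPAP and 169 of 178 in the difference. The sign turned in 17, 28 and 9 values, none of them called under either setting. Several alternatives repeat a change exactly, so the values are not independent of each other. BCL2L11 and BBC3 have no value with a filter at a mean of 5. The count of members called in CAL-62, 1 on the deposited scale, was 4 with ribosomal protein genes as the reference (all lower, beside 26.6% of all genes called), 2 with mitochondrial genes (beside 6.91%), 2 with the sum of reads (beside 13.2%) and 0 with the 4 CAL-62 libraries alone. With the replicate number as a block it was 4, beside 40.2% of all genes, of which MCL1 (limma adjusted p = 0.0382), BCL2L2 (0.0129) and BAK1 were lower and BAD higher (0.0143). With 1 CAL-62 library left out, which members were called depended on the library. The change of BAK1 was -1.81 without DMSO replicate 1, -1.59 without DMSO replicate 2, -1.62 without THZ1 replicate 1 and -1.78 without THZ1 replicate 2. For MCL1 it was -2.13, -1.44, -2.72 and -0.85 in that order. Leaving out a library of a line left 1 library in its group, which is assumed to vary like the others.

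Over all genes, the 525 calls in CAL-62 (66 higher, 459 lower) became 196 with a filter at a mean of 5, 3050 with ribosomal protein genes as the reference (4 higher), 793 with mitochondrial genes (3 higher), 1506 with the sum of reads (10 higher), 859 with limma-voom (266 higher), 4563 with the replicate block (2503 higher, 2060 lower), 0 with the 4 CAL-62 libraries alone and 0 to 833 with 1 library left out, lowest without CAL-62 DMSO replicate 2 and highest without BCPAP THZ1 replicate 2. In BCPAP 0 became 2 with mitochondrial genes as the reference and 0 to 1 with 1 library left out. In the difference 0 became 1 with a pseudocount of 0.1 and 1 with mitochondrial genes. Apart from the shift each scaling gives, and the fewer genes or libraries in some fits, the cause was not tested.

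Same-numbered libraries deviated together from their group means (r = 0.464 between CAL-62 THZ1 and DMSO, 0.779 in BCPAP, 0.433 to 0.779 over all group pairs), but the labels tie the numbers to no shared batch and each comparison has 2 pairs. BAD, BAX, BBC3 and BID were higher in number 2 than in number 1 in all 4 groups, which is 4 of 10 members beside 22.1% of 10653 genes.

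With summed reads in place of values, MCL1 made up 28.2% of the survival genes in CAL-62 THZ1, 51.3% in CAL-62 DMSO, 47.7% in BCPAP THZ1 and 44.7% in BCPAP DMSO, where values gave 20.2%, 40.4%, 37.3% and 34.7%. The death-promoting to survival ratio was then 0.664, 0.312, 0.559 and 0.459 in that order, where values gave 1.14, 0.564, 0.954 and 0.838.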

Other observations

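BIM is held by BCL-XL, and BCL2L11 over BCL2L1 was 0.0449 and 0.0335 in CAL-62 with THZ1, against 0.0205 and 0.0220 with DMSO. In BCPAP the ratio was 0.0634 and 0.0280 with THZ1, against 0.0262 and 0.0144 with DMSO. Both THZ1 libraries lay above both DMSO libraries in each line. The ratio does not depend on the scaling of a library, and it was chosen after the values were seen and has no test. MCL1 over BCL2L1 was 0.392 and 0.151 in CAL-62 with THZ1, against 0.561 and 0.909 with DMSO, without overlap. In BCPAP it was 0.876 and 0.458 with THZ1, against 0.777 and 0.435 with DMSO, with overlap.

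Other BCL2 family genes were listed in 1 line alone. BCL2A1, a survival gene, was listed in BCPAP at 6.45 and 1.86 with THZ1, against 5.89 and 2.58 with DMSO, and BMF, a BH3-only gene, at 1.69 and 1.65 with THZ1, against 2.34 and 5.56 with DMSO. Neither passed the test there.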
